A study of Ovis aries with 2 samples.

Results

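The genes followed here were ACRV1, SPACA1, ZPBP2, SUN5 and PRSS55, which code for proteins of the acrosome and the sperm head. They were chosen by symbol, and each symbol matched 1 of the 27054 genes in both count matrices, so that 5 of 27054 genes were described. The deposited files pair them with ENSOARG00000011699 (ACRV1), ENSOARG00000012955 (SPACA1), ENSOARG00000012167 (ZPBP2), ENSOARG00000005348 (SUN5) and ENSOARG00000015102 (PRSS55). The study sequenced single cells of sheep testis in 1 library labelled ZEA0.75 and 1 labelled Control, both from animals given as 8 months of age. The series speaks of testis damage by ZEA, the common short form of zearalenone, an oestrogenic mycotoxin of Fusarium moulds. The labels neither write the name out nor state the unit of 0.75, the route of exposure or whether the library pooled several animals. Transcripts were counted as unique molecular identifiers (UMIs), tags that let each captured RNA molecule be counted once.

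The acrosome is a vesicle built from the Golgi apparatus over the nucleus of the round spermatid, and it carries the enzymes and binding proteins that the sperm uses at the egg. As the spermatid elongates, the acrosome flattens over the condensing nucleus, the tail is fixed to the nuclear envelope at the opposite pole, and transcription comes to a stop. ACRV1 is a protein of the acrosomal matrix. SPACA1 is an acrosomal membrane protein needed for normal head shape in mice, and ZPBP2 is an acrosomal protein related to the zona pellucida binding protein ZPBP. SUN5 is a nuclear envelope protein that holds the tail to the head, and its loss gives headless sperm in mice and in humans. PRSS55 is a testis protease-like protein anchored to the membrane, which mouse sperm need to reach the oviduct.

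The ZEA library held 8809 barcodes and 22148456 UMIs, and the Control library 7030 barcodes and 53044981 UMIs. After filtering, 8803 ZEA cells had a median of 1406 UMIs and 6804 Control cells a median of 4158.5 UMIs, and 15 barcode sequences occurred in both libraries. Clusters were made without the 5 genes and named from other markers. Round spermatid-like cells were 1250 in the ZEA library (nearly all in clusters 1 and 16) and 1321 in the Control library (clusters 3 and 4). Elongating spermatid-like cells were 952 in the ZEA library (cluster 22) and 2130 in the Control library (clusters 2, 7 and 9). Late spermatocyte-like cells were 9 in the ZEA library and 1138 in the Control library. Because nearly every one of these clusters came from 1 library, a cluster may stand for that library and not for a stage alone. With 1 library per group no test was possible, no difference has a replicate check, and a difference between animals or preparations cannot be told apart from one between treatments. All intervals are 95% intervals that cover counting error only.

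Levels are given as CPM, the UMIs of a gene over all UMIs of the cells of a class, scaled by 1000000, and the levels of different genes are not compared with each other because they were not adjusted for transcript length. Over all kept cells, ACRV1 stood at 116 CPM in the ZEA library and 167 CPM in the Control library. SPACA1 stood at 299 CPM in the ZEA library and 325 CPM in the Control library. ZPBP2 stood at 35.2 CPM in the ZEA library and 56.5 CPM in the Control library. All 5 genes were lower over the whole ZEA library, in which round and elongating spermatid-like cells made up 14.2% and 10.8% of cells, against 19.4% and 31.3% in the Control library. SUN5 stood at 117 CPM in the ZEA library and 273 CPM in the Control library. PRSS55 stood at 122 CPM in the ZEA library and 163 CPM in the Control library. The stages and libraries were therefore compared within cell classes.

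In the Control library, 4 of the 5 genes were at least 2-fold higher in round spermatid-like than in late spermatocyte-like cells, and ZPBP2 was the exception, being lower. Of all 9925 genes with at least 50 UMIs in this comparison, 31.0% were at least 2-fold higher in round spermatid-like cells. ACRV1 was at 322 CPM (314 to 330) in round spermatid-like cells and 26.6 CPM (24.0 to 29.5) in late spermatocyte-like cells, a 12.1-fold difference. SPACA1 was at 637 CPM (626 to 649) in round spermatid-like cells and 59.9 CPM (55.9 to 64.2) in late spermatocyte-like cells, a 10.6-fold difference. For both genes of the acrosomal vesicle the intervals of the stages lay far apart. SUN5, the tail anchor, had the widest step of the 5 genes, with 569 CPM (559 to 580) in round spermatid-like cells and 33.2 CPM (30.2 to 36.4) in late spermatocyte-like cells, a 17.2-fold difference. PRSS55 was at 342 CPM (333 to 350) in round spermatid-like cells and 23.0 CPM (20.6 to 25.7) in late spermatocyte-like cells, a 14.8-fold difference. ZPBP2 was at 41.2 CPM (38.4 to 44.2) in round spermatid-like cells and 113 CPM (107 to 118) in late spermatocyte-like cells, a log2 ratio of -1.45 (-1.58 to -1.33). ZPBP2 transcripts were thus already present in meiotic cells of the Control library.

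The levels of ACRV1, SPACA1, SUN5 and PRSS55 in Control spermatocytes were no higher than in Control cells that should not express them. RNA set free by broken cells enters every droplet, so a low level in a cell does not show expression there. In the 155 spermatogonia-like cells of the Control library, ACRV1 was at 37.1 CPM, SPACA1 at 94.2 CPM, SUN5 at 57.1 CPM and PRSS55 at 51.4 CPM. ZPBP2 was at 11.4 CPM (3.11 to 29.2) in those cells, well under its 113 CPM in late spermatocyte-like cells. In the 33 leukocyte-like cells of the Control library, ZPBP2 was at 19.9 CPM, from 1 UMI. The spermatogonia-like cluster also scored high for the Sertoli marker list, so its name is less sure than the others.

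Across the named somatic classes of the ZEA library the 5 genes stayed low. In its 2066 endothelial-like cells ACRV1 was at 7.84 CPM (5.93 to 10.2) and SPACA1 at 50.2 CPM (45.2 to 55.6). SUN5 was at 18.3 CPM, PRSS55 at 19.2 CPM and ZPBP2 at 7.70 CPM in the same cells. For each gene the interval lay far below that in ZEA round spermatid-like cells. SPACA1 was at 44.6 CPM (30.9 to 62.3) in Sertoli-like cells of the ZEA library, and higher than in endothelial-like cells in the other somatic classes, with 97.9 CPM in peritubular myoid-like, 131 CPM in perivascular-like, 134 CPM in stromal fibroblast-like and 150 CPM in leukocyte-like cells. The intervals of these last 4 classes overlapped with one another. The 3173 cells in unnamed clusters of the ZEA library were at 285 CPM (268 to 302), and among them were clusters 13 and 17, which leaned towards endothelial markers, with 278 CPM and 254 CPM of SPACA1. In descending order of SPACA1 level over the named classes of at least 50 ZEA cells, round spermatid-like cells (791 CPM, 769 to 815) came before leukocyte-like (93.9 to 227), stromal fibroblast-like (102 to 174), perivascular-like (100.2 to 168) and elongating spermatid-like cells (126 CPM, 111 to 142), and these 4 did not differ beyond counting error.

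**Figure D1:**
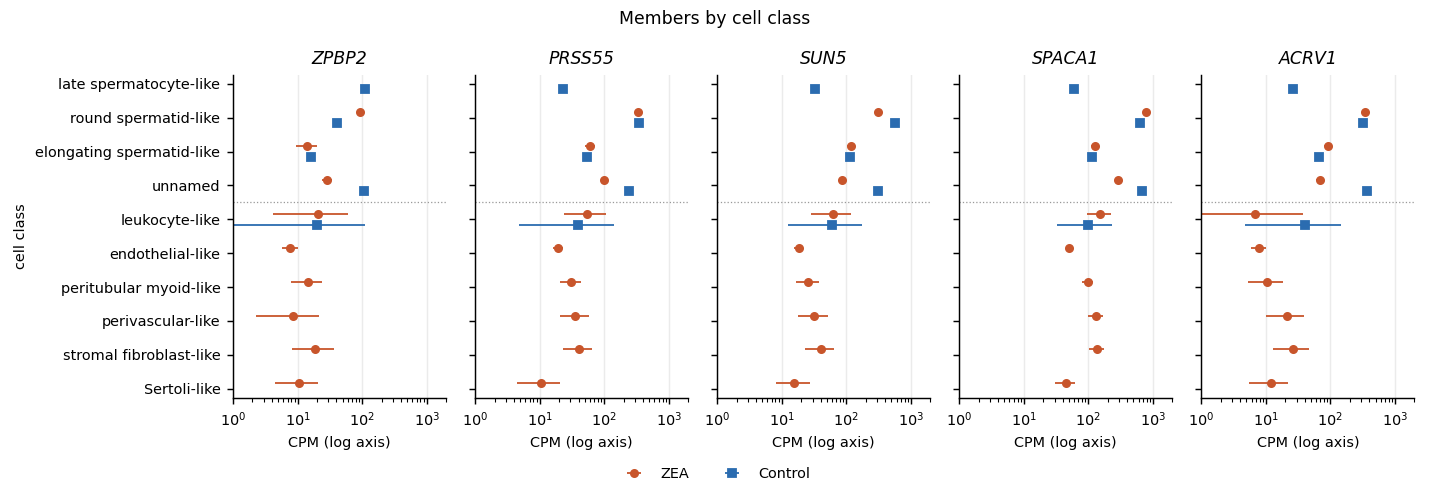
Level of each gene by cell class on a log axis of CPM, with ZEA as circles, Control as squares and exact Poisson 95% intervals as bars. Classes with under 20 cells in a library are left out. Above the dotted line are germ cell classes and unnamed clusters, below it somatic classes. ZPBP2 is the gene whose Control level is higher in late spermatocyte-like cells (113 CPM) than in round spermatid-like cells (41.2 CPM).

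All 5 genes were at least 2-fold lower in elongating than in round spermatid-like cells, in each library. Of all genes entering, 44.0% of 7156 were at least 2-fold lower in elongating cells of the ZEA library and 31.1% of 9325 in the Control library, so such a decline was common. SPACA1 was at 126 CPM in elongating and 791 CPM in round spermatid-like cells of the ZEA library, a log2 ratio of -2.65 (-2.84 to -2.48). In the Control library SPACA1 was at 115 CPM in elongating and 637 CPM in round spermatid-like cells, a log2 ratio of -2.47 (-2.54 to -2.39). The intervals of these ratios overlapped between the libraries. PRSS55 had log2 ratios of -2.48 (-2.74 to -2.22) in the ZEA library and -2.68 (-2.79 to -2.58) in the Control library, and these intervals also overlapped. ACRV1 had a log2 ratio of -1.92 (-2.13 to -1.71) in the ZEA library and -2.28 (-2.38 to -2.18) in the Control library. The intervals of ACRV1, SUN5 and ZPBP2 lay apart between the libraries. SUN5 had a log2 ratio of -1.41 (-1.60 to -1.22) in the ZEA library and -2.31 (-2.39 to -2.24) in the Control library. ZPBP2 had a log2 ratio of -2.74 (-3.32 to -2.21) in the ZEA library and -1.37 (-1.59 to -1.16) in the Control library. The levels of SUN5 and ZPBP2 in elongating cells lay closer together between the libraries than those in round spermatid-like cells.

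The timing was resolved further with a stage index computed in each germ cell with at least 2000 UMIs. It is the log2 ratio of the summed CPM of elongating and late elongated stage genes to that of pachytene, dividing and early round stage genes, and none of the 5 genes entered it. Cells of both libraries together were split into 10 bins of equal size, numbered from early to late, which held 1017 ZEA and 4082 Control cells. The 2818 ZEA and 2659 Control germ cells of lower depth were not placed. Bins 1 and 2 were 86.7% and 87.3% spermatocyte cluster 5 in the Control library. The ZEA library had 15 cells in bin 1 and 47 in bin 2, and cluster 16, of round spermatid-like cells, gave 78.7% of the ZEA cells in bin 2. Early bins therefore did not hold the same kind of cell in both libraries, and the libraries were compared from bin 4 on, the earliest bin in which round spermatid clusters led in both. In bins 4 to 10 the median index of the ZEA cells lay within 0.0628 of that of the Control cells. The binning itself brings this about, since bins were cut on the index over both libraries, so it does not show equal stage. Genes of the index could still differ within a bin. In bin 10 SPEM1 was at 2087 CPM in ZEA and 6472 CPM in Control cells, and TNP1 at 2105 CPM and 2359 CPM. Median depth also differed. It was 8561 UMIs in ZEA against 11172 UMIs in Control cells in bin 4. In bin 8 it was 2989.5 UMIs in ZEA against 12506 UMIs in Control cells.

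**Figure D2:**
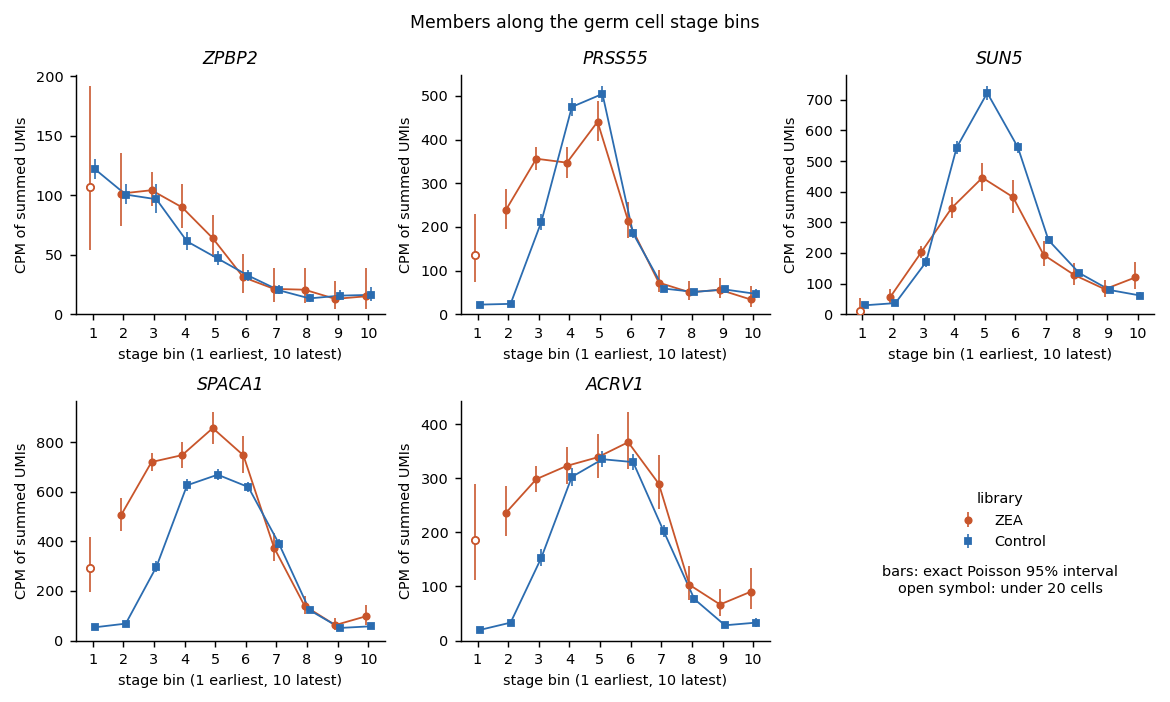
Level of each gene in CPM over the 10 stage bins, with ZEA as circles, Control as squares and exact Poisson 95% intervals as bars. The open symbol marks the ZEA bin of under 20 cells. ZPBP2 is highest in the earliest Control bin (122 CPM) while the other genes peak in bins 5 or 6, and SUN5 peaks at 446 CPM in the ZEA and 722 CPM in the Control library.

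SUN5 came on later than ACRV1, SPACA1 and PRSS55 in both libraries. In bin 2 of the ZEA library SUN5 was at 57.3 CPM (37.4 to 83.9), 12.9% of its own peak. There ACRV1 was at 64.3%, SPACA1 at 58.9% and PRSS55 at 54.0% of their peaks. A like order was seen in the Control library in the mixed bin 3 where spermatocyte cluster 5 gave 43.7% of cells. In that bin SUN5 was at 23.6% of its peak, with PRSS55 at 41.8%, SPACA1 at 44.5% and ACRV1 at 45.5%. By bin 4 SUN5 had reached 77.9% of its peak in the ZEA and 75.3% in the Control library. ZPBP2 showed the opposite timing. Its level in the ZEA library was 101 CPM in bin 2 and 104 CPM in bin 3, where it peaked, and in the Control library it peaked in bin 1 with 122 CPM (114 to 130).

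The peaks of the later genes fell in neighbouring bins. SPACA1 peaked in bin 5 in both libraries, at 857 CPM (794 to 923) in the ZEA library and 669 CPM (648 to 691) in the Control library. PRSS55 also peaked in bin 5 in both, at 441 CPM (396 to 489) in the ZEA library and 504 CPM (486 to 523) in the Control library. SUN5 peaked in bin 5 as well, at 446 CPM (401 to 494) in the ZEA library and 722 CPM (700.2 to 745) in the Control library. For PRSS55 the peak intervals touched, and for SPACA1 and SUN5 they lay apart, in opposite directions. ACRV1 peaked in bin 6 in the ZEA library at 367 CPM (316 to 423) and in bin 5 in the Control library at 335 CPM (320 to 351), with intervals that overlapped.

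In both libraries ZPBP2 and PRSS55 declined before SUN5, SPACA1 and ACRV1. In bin 6 of the ZEA library ZPBP2 was at 29.8% and PRSS55 at 48.4% of its own peak, while SUN5 was at 85.8%, SPACA1 at 87.2% and ACRV1 at 100%. In bin 6 of the Control library ZPBP2 was at 26.6% and PRSS55 at 36.7%, with SUN5 at 75.4%, SPACA1 at 92.6% and ACRV1 at 98.4%. PRSS55 therefore dropped below 50% of its peak in bin 6 in both libraries, within 1 bin of its peak. In the 90 ZEA cells of bin 6 it did so only narrowly, and the error of that percentage was not computed. In bin 7 of the ZEA library SUN5 was at 43.5%, SPACA1 at 43.8% and ACRV1 at 79.0% of the peak. In bin 7 of the Control library SUN5 was at 33.5%, SPACA1 at 58.5% and ACRV1 at 60.3%. ACRV1 was the last of the 5 to drop below 50% in the ZEA library, in bin 8, and shared bin 8 with SPACA1 in the Control library. SUN5 and SPACA1 could not be ordered in the ZEA library, where bin 7 held 91 and 176 UMIs of them.

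**Figure D3:**
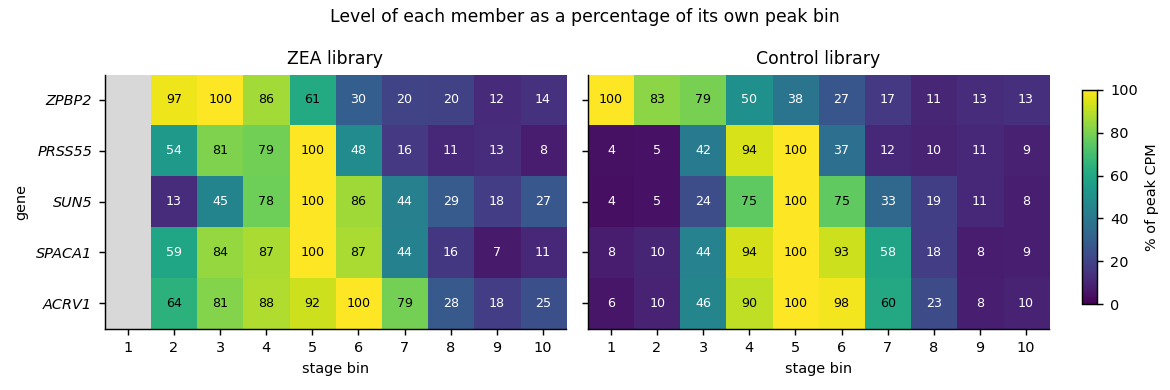
Level of each gene in each stage bin as a percentage of its own highest bin, in the ZEA library on the left and the Control library on the right. Grey marks the ZEA bin of under 20 cells. ZPBP2 and PRSS55, at the top, decline before the other genes: in bin 6, PRSS55 is at 48.4% in the ZEA and 36.7% in the Control library while ACRV1 is at 100% and 98.4%.

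The early loss of PRSS55 within the round spermatids of the Control library could also be read from the cluster levels. These are largely the same cells as in the bins, so the cluster levels are not a separate check. Cluster 4 gave 74.7% and 61.9% of the Control cells in bins 4 and 5, and cluster 3 gave 88.5% in bin 6. Cluster 3 had a mean stage position of 3.02 and cluster 4 of 2.70, on a scale in which higher is later. PRSS55 was at 180 CPM in the later cluster 3 and 541 CPM in the earlier cluster 4, a log2 ratio of -1.59 (-1.67 to -1.51), and it led the list of genes enriched in cluster 4 although it took no part in the clustering. ZPBP2 was at 29.8 CPM in cluster 3 and 55.2 CPM in cluster 4, a log2 ratio of -0.89 (-1.10 to -0.68). The other genes differed less between these clusters. ACRV1 had a log2 ratio of 0.07 (0.00 to 0.14), SPACA1 of -0.06 (-0.11 to -0.01) and SUN5 of -0.28 (-0.33 to -0.22). The round spermatid clusters of the ZEA library differed in depth, with medians of 1101 UMIs in cluster 1 and 9601 UMIs in cluster 16. SUN5 was at 491 CPM in ZEA cluster 1 and 258 CPM in ZEA cluster 16, a log2 ratio of 0.93 (0.79 to 1.07). PRSS55 was at 285 CPM in ZEA cluster 1 and 362 CPM in ZEA cluster 16, a log2 ratio of -0.34 (-0.51 to -0.18). ZPBP2 was at 108 CPM in ZEA cluster 1 and 90.2 CPM in ZEA cluster 16, a log2 ratio of 0.26 (-0.03 to 0.54). A decline of ZPBP2 was thus not seen between these 2 clusters. Cluster 1 had the later mean stage position, 2.75, against 2.49 for cluster 16.

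The levels that remained in late elongating cells were set beside those of cells that should lack the genes. In bin 10 of the ZEA library ACRV1 was at 90.2 CPM (57.8 to 134), SPACA1 at 97.8 CPM (63.9 to 143) and SUN5 at 120 CPM (82.3 to 170), from 24, 26 and 32 UMIs. The ACRV1 interval lay above those of all named somatic classes of the ZEA library, whose upper bounds ran up to 46.3 CPM in stromal fibroblast-like cells. Among these named classes the SUN5 interval overlapped only with that of the 104 leukocyte-like cells (28.0 to 116). The SPACA1 interval overlapped with those of the leukocyte-like, stromal fibroblast-like, perivascular-like and peritubular myoid-like cells. In the unnamed ZEA clusters 13 and 17, which leaned towards endothelial markers, ACRV1 was at 60.6 CPM (43.1 to 82.9) and 78.7 CPM (61.6 to 99.2). Both intervals overlapped with that of bin 10, as did those of SUN5 in these clusters (51.0 to 93.6 and 80.1 to 122). PRSS55 was at 33.8 CPM (15.5 to 64.2) in the same bin, an interval that overlapped with those of all 6 named somatic classes. In bin 10 of the Control library ACRV1 was at 33.0 CPM, SPACA1 at 57.4 CPM, SUN5 at 61.0 CPM and PRSS55 at 46.7 CPM, each within the interval of its level in the 33 Control leukocyte-like cells, which rests on 2 to 5 UMIs. ZPBP2 was at 15 CPM (4.10 to 38.5) in the ZEA and 16.3 CPM (11.1 to 23.0) in the Control library in bin 10. Its ZEA interval overlapped with those of all 6 named somatic classes of that library, such as peritubular myoid-like cells at 14.3 CPM (7.98 to 23.5). Its Control level lay within the interval of the Control leukocyte-like cells (0.503 to 111), which rests on 1 UMI.

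Between the libraries, 1 of the 5 genes was at least 2-fold higher in ZEA than in Control round spermatid-like cells, ZPBP2, and none was at least 2-fold lower. Of 9126 genes entering, 20.8% were at least 2-fold higher and 8.37% at least 2-fold lower in the ZEA library, so 1 of 5 is close to the background share. ZPBP2 was at 93.0 CPM (85.3 to 101) in ZEA and 41.2 CPM (38.4 to 44.2) in Control cells, a log2 ratio of 1.17 (1.01 to 1.34). SUN5 was at 311 CPM (297 to 326) in ZEA and 569 CPM (559 to 580) in Control cells, a log2 ratio of -0.87 (-0.95 to -0.80), and 89.5% of all genes had a higher ratio. The zona-binding gene and the tail anchor thus differed in opposite directions. SPACA1 was at 791 CPM in ZEA and 637 CPM in Control cells, a log2 ratio of 0.31 (0.26 to 0.36). ACRV1 was at 348 CPM in ZEA and 322 CPM in Control cells, a log2 ratio of 0.11 (0.04 to 0.19). PRSS55 was at 339 CPM in ZEA and 342 CPM in Control cells, a log2 ratio of -0.01 (-0.09 to 0.06).

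The median of all genes was itself shifted by 0.30 on the log2 scale towards the ZEA library in this class. Relative to that median, SUN5 was past 2-fold, at -1.17, and ZPBP2 was not, at 0.88. On the same scale ACRV1 had the opposite sign, at -0.18, PRSS55 was at -0.31 and SPACA1 at 0.02. Which of the genes passed 2-fold therefore depended on the scaling, while the direction of ZPBP2 and SUN5 did not. The sizes also depended on the clustering, since at a finer Leiden resolution of 2, which named 327 ZEA cells as round spermatid-like, ZPBP2 was at 0.32 and SUN5 at -0.24.

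Within stage bins 4 to 6 the differences in ZPBP2 and SUN5 were both smaller than over the class, and the SUN5 intervals still excluded 0. The binned cells were not the same set as the class, since each had at least 2000 UMIs. Cluster 16 gave 83.7% and 66.7% of the ZEA cells in bins 4 and 5, and cluster 1 gave 47.8% in bin 6. Most of the 803 ZEA cells of cluster 1, of median depth 1101 UMIs, were thus left out. ZPBP2 had a log2 ratio of ZEA to Control of 0.55 (0.20 to 0.89) in bin 4, 0.45 (-0.01 to 0.88) in bin 5 and -0.06 (-0.90 to 0.67) in bin 6. In these bins the ZEA library had 97, 52 and 16 ZPBP2 UMIs. SUN5 had a log2 ratio of -0.65 (-0.81 to -0.49) in bin 4, -0.70 (-0.86 to -0.54) in bin 5 and -0.51 (-0.73 to -0.30) in bin 6. Its levels were 347 CPM in ZEA and 544 CPM in Control cells in bin 4, and 382 CPM in ZEA and 545 CPM in Control cells in bin 6. In bins 4 to 6 between 10.6% and 17.1% of all genes had a lower ratio than SUN5, so the difference lay inside the spread of all genes. From bin 8 on the SUN5 intervals included 0, except in bin 10 with 0.98 (0.37 to 1.55). In bin 10 the ZEA cells were mostly of cluster 22 (84.6%) and the Control cells mostly of the later cluster 2 (74.9%).

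SPACA1 was slightly higher in ZEA cells of the same bins, with log2 ratios of 0.26 (0.14 to 0.37) in bin 4, 0.36 (0.24 to 0.47) in bin 5 and 0.27 (0.12 to 0.42) in bin 6. Its intervals included 0 in bins 7 to 9, and the ratio was 0.77 (0.09 to 1.39) in bin 10. ACRV1 had log2 ratios of 0.09 in bin 4, 0.02 in bin 5 and 0.15 in bin 6, with intervals that included 0. ACRV1 was higher in ZEA cells later in the series, with 0.52 (0.25 to 0.78) in bin 7 on 136 ZEA UMIs and 0.43 (-0.05 to 0.87) in bin 8. It was also higher with 1.24 (0.61 to 1.83) in bin 9 and 1.45 (0.71 to 2.15) in bin 10, on 31 and 24 ZEA UMIs. In bins 9 and 10, however, cluster 22 gave 92.5% and 84.6% of the ZEA cells. Cluster 2, with a later mean stage position (3.61 against 3.36), gave 64.0% and 74.9% of the Control cells. These bins therefore did not hold the same kind of cell in both libraries, and the part of this in their ratios was not tested. PRSS55 was lower in ZEA cells of bin 4, at -0.45 (-0.61 to -0.29), and its interval included 0 from bin 6 on.

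**Figure D4:**
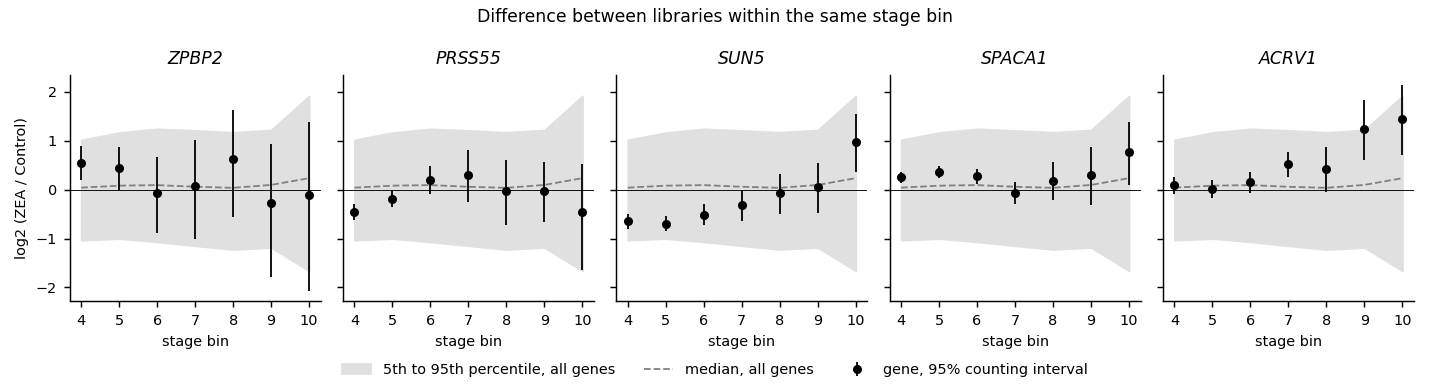
Log2 ratio of ZEA to Control for each gene within stage bins 4 to 10, with exact conditional 95% counting intervals. The grey band spans the 5th to the 95th percentile of all genes in the bin and the dashed line is their median. SUN5 lies below 0 in bins 4 to 7 (-0.70 to -0.32) but inside the band, and ACRV1 is at 1.24 in bin 9. In bins 9 and 10 the leading cluster of the Control cells has a later mean stage position than that of the ZEA cells.

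Between pairs of single clusters the sizes varied with the pair, and for PRSS55 the direction did too. SUN5 had a log2 ratio of -1.29 (-1.38 to -1.19) between ZEA cluster 16 and Control cluster 4, the deep and early clusters. Between ZEA cluster 1 and Control cluster 3, the later clusters, SUN5 had a log2 ratio of -0.08 (-0.20 to 0.03), with 491 CPM in the ZEA and 520 CPM in the Control cluster. In these 2 pairs the SUN5 difference was thus seen for the deep early ZEA cluster. The interval for the shallow later one included 0 against Control cluster 3. ZPBP2 was higher in the ZEA cluster of both pairs, with 0.71 (0.51 to 0.90) for clusters 16 and 4 and 1.86 (1.56 to 2.15) for clusters 1 and 3. PRSS55, level over the whole class, had a log2 ratio of -0.58 (-0.66 to -0.50) for clusters 16 and 4 and of 0.67 (0.51 to 0.83) for clusters 1 and 3. ACRV1 had a log2 ratio of -0.08 (-0.18 to 0.02) for clusters 16 and 4 and of 0.63 (0.51 to 0.75) for clusters 1 and 3. The stage positions of the ZEA clusters were earlier than those of the Control clusters in both pairs, with 2.49 for ZEA cluster 16 against 2.70 for Control cluster 4, and 2.75 for ZEA cluster 1 against 3.02 for Control cluster 3. The part of this offset in the class ratios was not tested beyond the stage bins. Control cluster 4 lay nearer than cluster 3 to ZEA cluster 1 in stage position. Against Control cluster 4, ZEA cluster 1 was lower in SUN5, at -0.36 (-0.48 to -0.24), and in PRSS55, at -0.92 (-1.08 to -0.77). It was higher in ZPBP2, at 0.97 (0.69 to 1.24), and in ACRV1, at 0.71 (0.58 to 0.83).

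In elongating spermatid-like cells none of the 5 genes was 2-fold higher or lower in the ZEA library. Of 7452 genes entering, 12.7% were at least 2-fold higher and 6.51% at least 2-fold lower. ACRV1 was at 92.3 CPM (79.9 to 106) in ZEA and 66.3 CPM (62.2 to 70.6) in Control cells, a log2 ratio of 0.48 (0.25 to 0.70). SUN5 was at 117 CPM (103 to 133) in ZEA and 114 CPM (109 to 120) in Control cells, a log2 ratio of 0.04 (-0.16 to 0.23). The SUN5 difference of the round spermatids was therefore not seen over this class as a whole. ZPBP2 was at 13.9 CPM (9.39 to 19.9) in ZEA and 15.9 CPM (13.9 to 18.1) in Control cells, a log2 ratio of -0.19 (-0.79 to 0.36). SPACA1 had a log2 ratio of 0.12 (-0.07 to 0.31) and PRSS55 of 0.19 (-0.09 to 0.46). The Control class joined a deep cluster 9 and a cluster 2 of later cells, and against cluster 2 alone ZEA cluster 22 was higher in ACRV1 by 1.75 (1.42 to 2.08), in SPACA1 by 1.25 (0.99 to 1.51) and in SUN5 by 1.18 (0.91 to 1.44) on the log2 scale. Control cluster 9 lay nearer in mean stage position, with 3.34 against 3.36 for ZEA cluster 22. Against it the same ZEA cluster had ratios of 0.21 (-0.03 to 0.43) for ACRV1 and -0.18 (-0.38 to 0.01) for SPACA1. For SUN5 the ratio was -0.30 (-0.50 to -0.10), lower in the ZEA cluster.

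Markers of other cells in these classes differed between the libraries. The 6 peritubular myoid markers summed to 89.9 CPM in ZEA and 1.20 CPM in Control round spermatid-like cells, with 1 marker at 0 in ZEA and 2 in Control. In elongating spermatid-like cells they summed to 102 CPM in ZEA and 1.17 CPM in Control cells. The 8 endothelial markers summed to 18.4 CPM in ZEA and 3.08 CPM in Control round spermatid-like cells, none at 0 in ZEA and 2 in Control. Other lists did not all go the same way in round spermatid-like cells. The 7 perivascular markers summed to 31.3 CPM in ZEA and 41.8 CPM in Control cells, the 8 stromal fibroblast markers to 152 CPM in ZEA and 148 CPM in Control cells, and the 9 macrophage markers to 1266 CPM in ZEA and 1240 CPM in Control cells. The part of these marker differences in the ratios was not tested.

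The share of cells with at least 1 UMI followed depth before it was equalized. Of round spermatid-like cells, 59.8% in the ZEA and 96.4% in the Control library held an ACRV1 UMI, at median depths of 1721 and 13441 UMIs. After each cell was thinned to 500 UMIs, which left out no cell, these shares were 17.8% (15.8 to 20.1) in the ZEA and 16% (14.1 to 18.1) in the Control library. In ZEA endothelial-like cells, of median depth 2631.5 UMIs, the thinned share was 0.871%. The thinned share for SUN5 was 17.4% (15.4 to 19.7) in ZEA and 24.5% (22.2 to 26.9) in Control round spermatid-like cells, against 1.31% in endothelial-like cells. For SPACA1 it was 36.1% in ZEA and 27.9% in Control cells, against 3.63% in endothelial-like cells. For ZPBP2 it was 5.92% in ZEA and 1.89% in Control cells, against 0.339% in endothelial-like cells. For PRSS55 the shares were 14.2% in ZEA and 14.6% in Control cells, against 1.69% in endothelial-like cells. The thinned shares thus ordered the libraries as the CPM did, apart from PRSS55, which was level in both measures.

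Single cells carried several of the transcripts together in the middle of the stage series. With every binned cell thinned to 2000 UMIs, cells of bin 5 held on average 2.51 of the 5 genes in the ZEA and 2.66 in the Control library. At least 3 of the 5 were found in 53.2% of 111 ZEA cells and 57.9% of 399 Control cells of that bin. None of the 5 was found in 2.70% of the ZEA and 1.75% of the Control cells of bin 5. In bin 8 none was found in 52.6% of ZEA and 51.5% of Control cells. In the neighbouring bins the share with at least 3 was lower, with 43.9% of ZEA and 51.2% of Control cells in bin 4 and 34.4% of ZEA and 39.6% of Control cells in bin 6. All 5 together were rare, with 3 ZEA and 6 Control cells of bin 5, where ZPBP2 was found in 12.6% of ZEA and 8.02% of Control cells.

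Some germ-like cells lay in clusters that could not be named. Cluster 0, of shallow cells with a median of 1040 UMIs in the Control library, held 66 ZEA and 1523 Control cells. Its Control cells had ACRV1 at 430 CPM (401 to 460), SUN5 at 332 CPM (307 to 358) and ZPBP2 at 120 CPM (105 to 136). Set against Control cluster 4, they were higher in ZPBP2, with a log2 ratio of 1.12 (0.89 to 1.35), and lower in SUN5, with -0.92 (-1.04 to -0.81), and in PRSS55, with -1.04 (-1.18 to -0.91). They were also higher in ACRV1, with 0.46 (0.34 to 0.57), and in SPACA1, with 0.29 (0.20 to 0.37). Higher ZPBP2 with lower SUN5 was thus also found between clusters 0 and 4 of the Control library. The part of stage or depth in it was not tested. Cluster 0 had an earlier mean stage position, 2.41 against 2.70 for cluster 4, and scored highest for the late spermatocyte list. In the ZEA library the largest unnamed cluster was 15, with 1520 of its 3835 germ cells and a median of 610 UMIs. Those cells had SPACA1 at 529 CPM (487 to 575), PRSS55 at 183 CPM, SUN5 at 151 CPM, ACRV1 at 113 CPM and ZPBP2 at 58.6 CPM.

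Over the 10 germ clusters of at least 50 Control cells, ACRV1, SPACA1, SUN5 and PRSS55 shared a pattern that ZPBP2 did not. Pearson's r of log2(CPM + 1) was 0.989 between ACRV1 and SPACA1, 0.963 between ACRV1 and SUN5 and 0.926 between ACRV1 and PRSS55. ZPBP2 had an r of 0.28 with ACRV1 and 0.17 with SUN5. Of 5154 other genes, those most like ACRV1 were EQTN, which codes for the acrosomal membrane protein equatorin (r = 0.992), ANAPC2 and ATP6V1E2 (both 0.980). SPACA1 was most like EQTN (0.988), ANAPC2 (0.984) and ARMH2 (0.982). SUN5 was most like SPACA4, another acrosomal membrane protein gene (0.990), FAIM2 (0.990) and ATP6V1E2 (0.989). PRSS55 was most like TMEM262 (0.987), KLF5 (0.979) and EFCAB9 (0.978), and ZPBP2 was most like MOK (0.965), TMEM217 (0.965) and DCDC2 (0.964). The clusters share 1 library and differ in depth, and so many genes with so few clusters give high values easily.

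Other genes of the acrosome and the sperm head were read from 4 lists, of which 11 of 19 genes of the acrosomal vesicle and its enzymes, 15 of 21 of acrosome biogenesis and anchoring, 8 of 17 of sperm and egg interaction and 18 of 20 of head-tail coupling and the nuclear envelope were found by symbol. They spread over the whole stage series. Genes that, like ZPBP2, peaked in bins 1 to 3 of the Control library included its paralogue ZPBP, with a peak of 1386 CPM in bin 2, the acrosome-anchoring gene DPY19L2, with 476 CPM in bin 1, and the fertilin gene ADAM2, with 540 CPM in bin 1. EQTN peaked with SPACA1 in bin 5 in both libraries, at 781 CPM in the ZEA and 404 CPM in the Control library. The lamin gene LMNB2 and the acrosomal gene TMEM190 peaked in bin 6 in both libraries. A further group peaked later than the 5 genes, among them CAPZA3, an actin-capping subunit of the sperm head, which peaked in bin 9 at 2381 CPM in the ZEA and 2820 CPM in the Control library. The connecting piece gene SPATA6 also peaked in bin 9, at 4726 CPM in the ZEA and 6069 CPM in the Control library. SPACA9 peaked in bin 10, at 1244 CPM in the ZEA and 4969 CPM in the Control library.

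**Figure D5:**
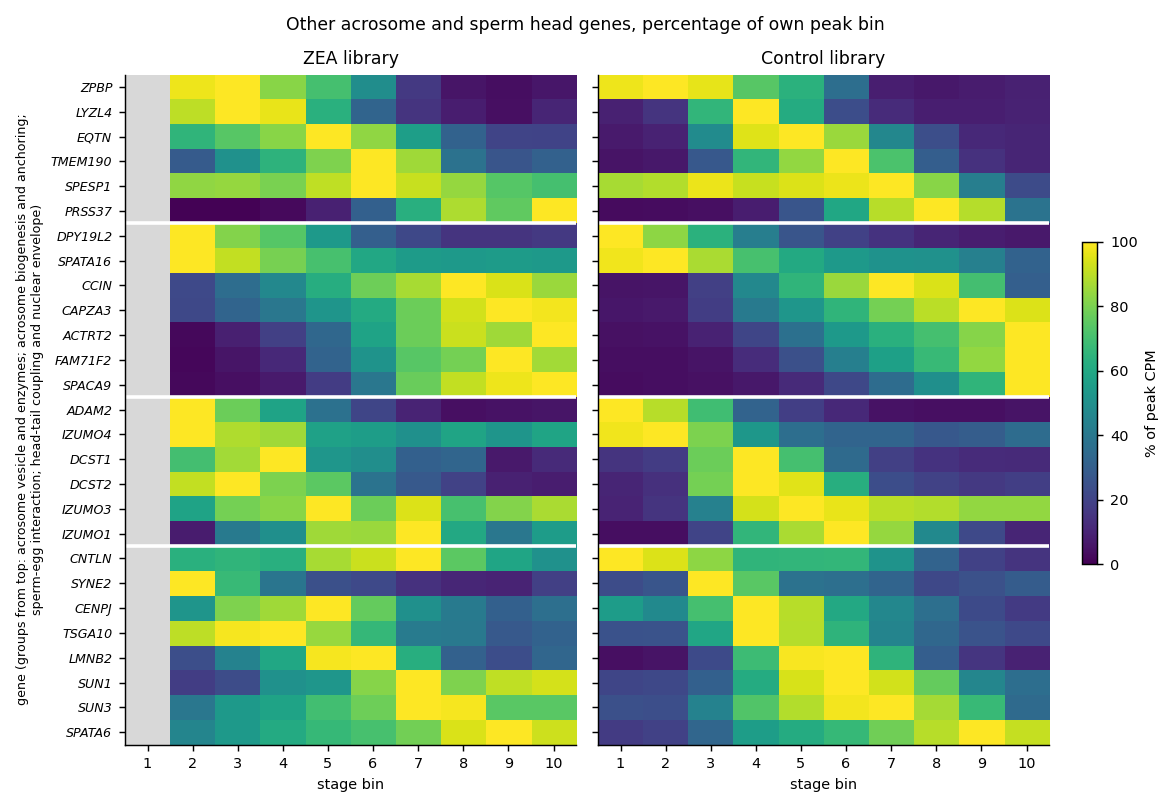
Level of 27 other acrosome and sperm head genes in each stage bin as a percentage of the own highest bin, with the ZEA library on the left and the Control library on the right. White lines part the 4 lists, and within a list genes run from early to late Control peak. Grey marks the ZEA bin of under 20 cells. ZPBP and ADAM2 are highest early, EQTN in bin 5, and CAPZA3, SPATA6 and SPACA9 in bins 9 or 10.

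The lists were also compared between the libraries, without a test. Among all genes of round spermatid-like cells 20.8% were at least 2-fold higher and 8.37% at least 2-fold lower in the ZEA library, and the count of each list is read against those shares. In round spermatid-like cells, where the median of all genes was 0.30, the 14 genes of acrosome biogenesis and anchoring that entered had a median log2 ratio of -0.64, with 1 gene at least 2-fold higher and 4 at least 2-fold lower in the ZEA library. The 4 lower genes, which peaked later than the 5 genes in the Control library, were SPACA9 (-2.28), FAM71F2 (-1.69), the calicin gene CCIN (-1.50) and ACTRT2 (-1.37). The higher gene was DPY19L2 (1.43), which peaked early. The 8 genes of sperm and egg interaction had a median of 0.77, with ADAM2 (1.70) and the fusion genes DCST2 (1.41) and DCST1 (1.05) at least 2-fold higher and none lower. Of 11 genes of the vesicle and its enzymes, with a median of 0.12, LYZL4, a lysozyme-like gene, was higher (1.13) and PRSS37, a protease-like gene, was lower (-1.12). Of 15 genes of coupling and envelope, with a median of -0.16, 3 were at least 2-fold higher, SYNE2 (2.59), SYNE1 (2.43) and CNTROB (1.57), and LMNB2 was lower (-1.13). Of these, SYNE1 rested on only 50 ZEA and 31 Control UMIs (1.75 to 3.12) and CNTROB on 25 ZEA and 28 Control UMIs (0.73 to 2.40).

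In elongating spermatid-like cells, where the median of all genes was 0.14, the list of coupling and envelope genes had a median of 0.62, with 5 of 14 genes at least 2-fold higher in the ZEA library and none lower, where 12.7% of all genes of this class were higher and 6.51% lower. These were the centriole gene CNTLN (2.12), SUN1 (1.85), CENPJ (1.33), SYNE2 (1.03) and SUN2 (1.61). SYNE1, CNTROB, SUN2 and SMAP2 lie outside the naming rule and are named after their values were seen. SUN1, a relative of SUN5, was at 182 CPM in ZEA and 50.5 CPM in Control cells. The 11 vesicle genes had a median of 0.47, with PRSS37 (2.04) and EQTN (1.73) higher. EQTN was at 275 CPM in ZEA and 82.9 CPM in Control cells, whereas ACRV1 and SPACA1, whose Control cluster patterns it was closest to, had ratios of 0.48 and 0.12. The 14 genes of biogenesis and anchoring had a median of -0.08, with DPY19L2 (1.01) and SMAP2 (1.18) higher and SPACA9 (-1.52) and FAM71F2 (-1.01) lower, and of 7 genes of sperm and egg interaction DCST1 was higher (1.31).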

How the data were processed

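Single-cell RNA was counted in 1 ZEA and 1 Control library of sheep testis. The deposited files give unnormalized UMI counts for each gene in each barcode, per the file headers. Cell Ranger 3.1.0 and STAR are listed for both in the submitters' processing notes. The header of the ZEA matrix also gives Cell Ranger 3.1.0 and that of the Control matrix 5.0.0, so a difference by software version cannot be told apart from one by group. Genome build and gene annotation: not given in the sources used here. All 5 symbols were also found in the RefSeq gene table of assembly ARS-UI_Ramb_v3.0, which was used for names only.

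Cells were kept with at least 500 UMIs, 200 genes and at most 20% of UMIs from 13 mitochondrial genes. Doublets marked by Scrublet in scanpy 1.11.5 (seed 0) were left out, 2 in the ZEA and 205 in the Control library. With so few calls among 8809 ZEA barcodes, doublets must be assumed to remain in the ZEA library. The caller may have failed there, which was not examined. From 2000 variable genes, without the 5 genes and the 4 lists of acrosome and sperm head genes, 30 principal components, 15 neighbours and Leiden clustering at resolution 1 (igraph 0.11.9) gave 25 clusters, with no integration of the libraries. A cluster took the name of a marker list with a mean standardized level of at least 0.8, a lead of 0.15 over the next list and 3 enriched markers, unless its 10 leading genes held more markers of another type, or it was shallow with no own marker among them. These criteria were written after the clusters had been seen.

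UMIs were summed per class and library and given as CPM with exact Poisson intervals, shares with exact Clopper-Pearson intervals, and ratios with exact conditional binomial intervals, at the 95% level. A gene entered a comparison with at least 50 UMIs over both sums together, a class with at least 50 cells, and a count of 0 was set to 3 counts in a ratio. The script for ratios was tested on simulated data. The 5 genes and the lists were chosen with earlier results of these data known. From each list the text names the 4 genes with most UMIs, any gene past 2-fold between libraries in a spermatid class with at least 200 UMIs, and, per gene of the 5, the 3 genes of most similar pattern with at least 500 UMIs. Alternatives varied the cells used, their weight, doublets, clustering, naming, scaling and the minimum count.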

Additional observations from a re-analysis of the deposited data

Results flagged for a closer look

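PRSS37, the protease-like gene of the acrosomal vesicle list that mouse sperm need to reach the oviduct, differed between the libraries in opposite directions in the 2 spermatid classes. Its log2 ratio of ZEA to Control was -1.12 in round spermatid-like cells, with 249 CPM in ZEA and 543 CPM in Control cells. In elongating spermatid-like cells the log2 ratio was 2.04, with 4616 CPM in ZEA and 1124 CPM in Control cells. The lower ZEA level of the round class was not seen within stage bins 4 to 10. PRSS37 was at 111 CPM in ZEA and 109 CPM in Control cells of bin 4 and at 374 CPM in ZEA and 360 CPM in Control cells of bin 5, with intervals that overlapped. It was at 1269 CPM in ZEA and 806 CPM in Control cells of bin 6, and at 3632 CPM in ZEA and 1356 CPM in Control cells of bin 8. The difference between the classes was not tested, since each group has 1 library.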

How the results depend on the processing

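The number of the 5 genes past 2-fold between the libraries in round spermatid-like cells, 1 as reported, was 2 in cells with at least 5000 UMIs, where SUN5 was at -1.09 beside ZPBP2 at 1.02. It was 0 at Leiden resolution 2, where ZPBP2 was at 0.32, and 0 with the stage taken from each cell's own index, where ZPBP2 was at 0.61. ZPBP2 stayed above 0 and SUN5 below 0 in all 9 alternatives that gave a value. In elongating spermatid-like cells the number, 0 as reported, was 1 with unnamed clusters counted in their best class, where SPACA1 was at 1.14. The 4 genes higher in round than in late spermatocyte-like Control cells were past 2-fold in all 10 alternatives. The decline in elongating cells was past 2-fold for all 5 genes in the 7 alternatives of the ZEA library that gave a value, and in the Control library for ACRV1, SPACA1, SUN5 and PRSS55 in all 10 and for ZPBP2 in 8 of 10.

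Of all genes, 2659 were past 2-fold between the libraries in round spermatid-like cells, 7699 with no minimum beyond 1 UMI and 1570 with at least 200 UMIs. In elongating cells these numbers were 1435, 7901 and 675. No ZEA value could be had for elongating cells with at least 5000 UMIs, or for round spermatid-like cells with doublets kept or at resolution 0.5, as under 50 ZEA cells were left in the class. Scaling by the median was run for the comparisons of libraries. No paired analysis was possible because each group has 1 library. Depth limits the late bins, where the ZEA library held 4 to 32 UMIs per gene in bin 10.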
